A study of Mus musculus with 2 samples.

Results

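Klrd1, Klrc1, Klrc2, Klrk1, Klrb1c, Klrg1 and Klre1 are 7 of the 28009 genes listed in both matrices. They were taken by name as members of the killer lectin-like receptor family, of which the matrices list 26 genes in all. The choice was made with earlier results of these data known, so counts of members past a fold are descriptions. Each was described by its level and by its share of cells in both tissues, by the number of Cd8a plus Cd8b1 transcripts in intestinal cells, and by a Foxp3 transcript in splenic cells. The cells were IL-10eGFP+ CD4+ T cells, Foxp3-expressing cells included, sorted from the small intestine or the spleen of IL-10eGFP Foxp3mRFP double reporter mice. The mice had been given the anti-CD3 antibody 2C11 by repeated intraperitoneal injection, in both groups alike, and were killed hours after the last injection. In these mice eGFP marks transcription of Il10, and mRFP marks Foxp3, the factor that defines regulatory T cells. Each tissue was captured as 1 library on the 10x Genomics Chromium platform, and a library without anti-CD3 was not analysed here. How many mice were pooled, and whether intraepithelial or lamina propria cells of the intestine were loaded, was not given in the sources used here.

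Killer lectin-like receptors are surface receptors best known from natural killer cells, and activated and intraepithelial T cells also carry them. CD94, the product of Klrd1, pairs with NKG2A, the product of Klrc1, to give an inhibitory receptor for the non-classical class I molecule Qa-1. With NKG2C, from Klrc2, CD94 gives an activating receptor for the same ligand. NKG2D, from Klrk1, is an activating receptor for stress-induced class I-like ligands and signals through the adaptor DAP10, the product of Hcst. KLRG1 is an inhibitory receptor for cadherins on effector and effector regulatory T cells, Klrb1c encodes NK1.1, and Klre1 encodes a further lectin-like chain of natural killer cells.

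After the filters on quality and on cells in the G2/M phase, 1277 intestinal cells with a median of 3696 UMIs (unique molecular identifiers, 1 per captured transcript molecule) and 1468 splenic cells with a median of 5398 UMIs remained. The libraries shared 0 cell barcodes. Levels are counts of UMIs scaled to 1000000 (CPM), summed over the cells of a library or class, with exact Poisson 95% intervals, and shares are the percent of cells with at least 1 UMI, with exact Clopper-Pearson 95% intervals. With 1 library per tissue there was no replicate check and no test, and these intervals cover counting error only. Because deeper cells show a UMI more often, shares are also given at equal depth, after each cell was thinned to 2000 UMIs, which left out 107 intestinal and 23 splenic cells. The labelled CD4 T cell type was checked against its markers: Cd3e stood at 851 CPM in the intestine and 554 in the spleen, and Cd4 at 399 and 208.

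All 7 genes lie on chromosome 6 of GRCm38 (GENCODE M21). Klrg1 (122270596 to 122282882, minus strand) stands apart from the other 6, which lie between 128778485 and 129678973. Klre1 (129577905 to 129585827, plus), Klrd1 (129591782 to 129598775, plus), Klrk1 (129610323 to 129623864, minus), Klrc2 (129647496 to 129660689, minus) and Klrc1 (129666015 to 129678973, minus) are near neighbours. The promoters of Klrc1 and Klrk1 are shown because these genes differed in how they followed Cd8 transcripts. A short piece from before the RefSeq start of Klrc2, the paralog of Klrc1, is shown beside them. That piece lies inside the Klrc2 gene as placed by GENCODE. Sequences are from RefSeq on GRCm38.p6, which lists a promoter for 5 of the 7 genes, and they are written 5′ to 3′ along the gene. Capitals mark the letters TGTGGT, or ACCACA on the other strand, the core of the motif bound by Runx factors.
Klrc1, the 250 bases before the start, chr6:129678974-129679223, minus strand: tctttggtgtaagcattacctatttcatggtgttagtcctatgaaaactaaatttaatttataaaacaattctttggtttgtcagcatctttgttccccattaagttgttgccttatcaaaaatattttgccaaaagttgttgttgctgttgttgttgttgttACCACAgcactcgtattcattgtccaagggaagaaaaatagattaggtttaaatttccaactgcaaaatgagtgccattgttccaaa
Klrk1, the 250 bases before the start, chr6:129623865-129624114, minus strand: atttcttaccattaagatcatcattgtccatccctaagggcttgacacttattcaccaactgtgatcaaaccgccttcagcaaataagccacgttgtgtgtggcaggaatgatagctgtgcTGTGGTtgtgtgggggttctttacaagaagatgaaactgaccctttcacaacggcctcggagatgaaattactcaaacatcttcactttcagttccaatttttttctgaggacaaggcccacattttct
Klrc2, 30 bases, chr6:129660607-129660636, minus strand: aatcACCACAgcatagaacacaagtagaat
The match lay 87 bases before the start in Klrc1 and 129 bases before it in Klrk1, and Klrc2 had matches 36 and 9 bases before its RefSeq start. All 5 listed promoters, those of Klrb1c and Klre1 included, held these letters, against 14.2% of the 27025 RefSeq promoters of the same length. RefSeq and GENCODE place some of these starts differently. By GENCODE, the Klrb1c window (128788642 to 128788891) lies inside its gene, which ends at 128789215. The Klre1 window (129577963 to 129578212) also lies inside its gene, and the Klrc2 window overlaps its gene. Only the windows of Klrc1 and Klrk1 lie wholly before the gene in both annotations. The T-box letters GTGTGA, searched on both strands, were in 0 of the 5 and in 12.2% of all promoters. A match is a description of the letters and no evidence of binding. When aligned, the promoters of Klrc1 and Klrc2 were 49.8% identical, no closer than Klrc1 with Klrk1 (50.7%) or with Klre1 (54.1%). Those of Klrc2 and Klrc3 were 70.8% identical. At the 3′ ends, which 10x reads sample, 57.5% of the 50-base stretches in the last 400 bases of Klrc1 transcripts and 20.4% of those of Klrc2 also occurred in transcripts of Klrc1, Klrc2 or Klrc3 other than their own. How reads from such stretches were counted was not stated, so the split between Klrc1 and Klrc2 is uncertain. Stretches shared with another gene made up 15.4% for Klrb1c and 0% for Klrd1, Klrk1, Klrg1 and Klre1.

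The first comparison asked how intestinal and splenic IL-10eGFP+ cells differ. Transcripts of the CD94 and NKG2 receptors were higher in the small intestine, whereas Klrg1 was higher in the spleen. Klrd1 had 1833 UMIs in the intestine, 364 CPM (348 to 381), and 90 UMIs in the spleen, 9.83 CPM (7.91 to 12.1). The intestinal level of Klrd1 was 37.0-fold higher (29.97 to 46.3), and the intervals were far apart. Klrc1, which makes the inhibitory partner chain, stood at 85.4 CPM (77.6 to 93.9) in the intestine and 13.7 (11.4 to 16.3) in the spleen, a ratio of 6.26 (5.11 to 7.70). For Klrc2, the activating partner, the levels were 33.4 (28.5 to 38.8) and 2.62 (1.68 to 3.90), a ratio of 12.7 (8.27 to 20.4). The ratio of Klrd1 was thus above that of either partner gene beyond counting error.

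Klrk1, the NKG2D gene, had 49 UMIs in the intestine and 18 in the spleen, 9.74 and 1.97 CPM, a ratio of 4.95 (2.83 to 9.03). Klre1 was sparse, with 15 and 4 UMIs, and its ratio of 6.82 had an interval from 2.17 to 28.2. Klrg1 went the other way, with 12 UMIs in the intestine and 78 in the spleen, 2.38 and 8.52 CPM, which is 3.57-fold higher in the spleen (1.93 to 7.21). Klrb1c had 3 intestinal and 14 splenic UMIs, and the interval of its spleen to intestine ratio of 2.57, 0.72 to 13.9, included equal levels.

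Of the 7 genes, 5 had at least 20 UMIs over both libraries and entered the count of genes past 2-fold, while Klrb1c and Klre1 did not. Of these 5, 4 were at least 2-fold higher in the intestine, a change in that direction seen in 12.6% of the 10356 genes counted in the same way. The remaining one, Klrg1, was at least 2-fold lower, as were 14.5% of all genes counted. The median log2 ratio was 2.65 over the 5 members and −0.01 over all genes counted. As the members were chosen with earlier results known, these values are a description.

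**Figure D1:**
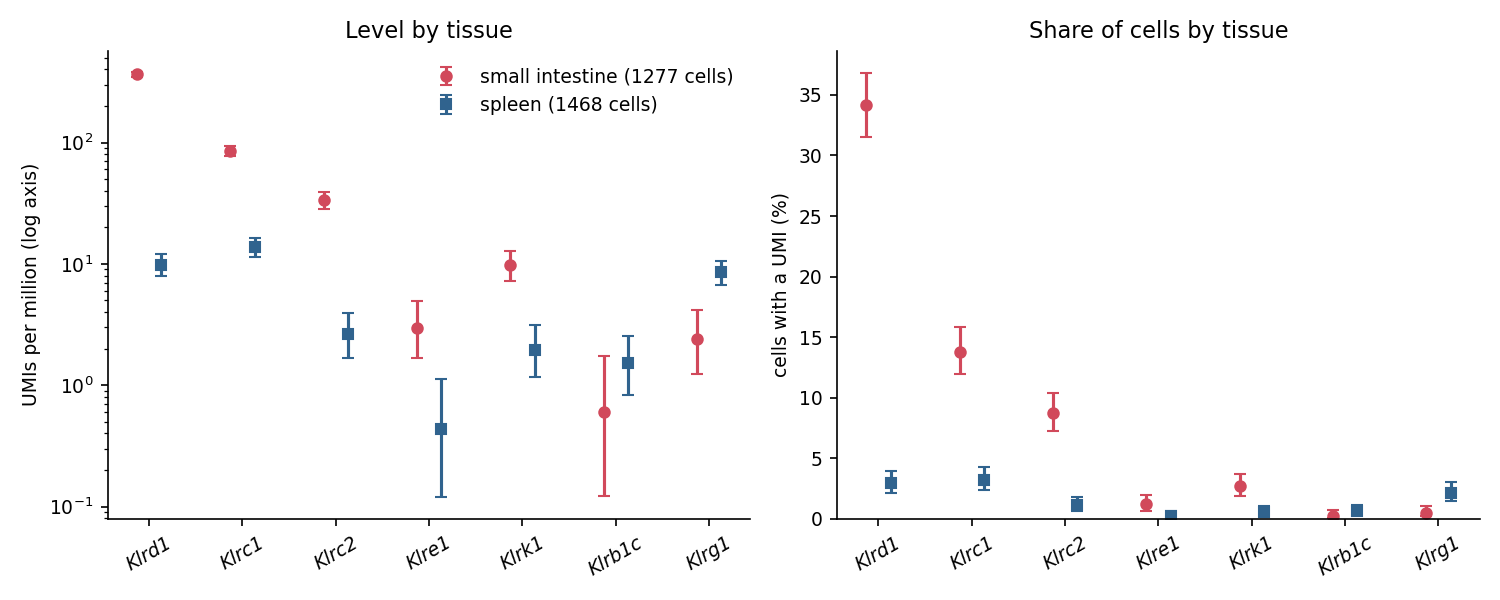
Left, level in CPM (log axis) of each gene in the small intestine (circles) and the spleen (squares); right, the percent of cells with a UMI of that gene. Points are 1 library each and bars are exact 95% counting intervals. Klrd1 stands at 364 and 9.83 CPM, and Klrg1 is the gene with more than 20 UMIs whose splenic point is the higher one.

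The shares of cells gave the same order of tissues. A Klrd1 UMI was found in 34.1% of intestinal cells (31.5 to 36.8) and 2.93% of splenic cells (2.13 to 3.93), and at equal depth in 27.6% and 1.59%. Klrc1 was detected in 13.8% and 3.20% of cells, Klrc2 in 8.69% and 1.09%, and Klrk1 in 2.66% and 0.54%. Klrg1 was detected in 0.47% of intestinal and 2.11% of splenic cells. At least 1 of the 7 genes had a UMI in 39.5% of intestinal cells (36.9 to 42.3) and 7.22% of splenic cells (5.95 to 8.67), and at equal depth in 32.9% and 4.50%. Intestinal Klrd1 cells held 4.20 UMIs of the gene on average and up to 46, with 141 of the 436 at a single UMI and 132 at 5 or more.

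Free RNA from lysed cells gives UMIs in cells that do not express a gene. The shares of Klrd1 were not separated from such background in either tissue, and the low splenic share is not read as expression. In the spleen 3 cells held 5 or more Klrd1 UMIs, with up to 14 in a cell. The 28 intestinal cells with a Foxp3 UMI, at a median of 4708.5 UMIs, had a Klrd1 UMI in 10.7% of cells (2.27 to 28.2). Within the spleen the UMIs of these genes were held by few cells. At least 50% of the Klrd1 UMIs lay in 8 of the 43 cells with one. For Klrc1 this was 10 of 47 cells, for Klrg1 7 of 31 and for Klrk1 2 of 8. In the intestine at least 50% of the Klrd1 UMIs lay in 74 of the 436 cells with one, so relative to the cells with a UMI the tissues were alike for Klrd1.

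The second comparison used intestinal cells by their Cd8a plus Cd8b1 UMIs. The sort was on CD4. Cd8a alone gives the CD8αα homodimer of intraepithelial cells, and Cd8b1 adds the β chain of conventional CD8 T cells. Of the 1277 cells, 1073 had no Cd8 UMI, 56 had 1, 32 had 2 to 4, and 116 had 5 or more. In 31 of the 56 cells that UMI was of Cd8b1, which 7.15% of splenic cells also had. Klrd1 stood at 243 CPM (228 to 258) with none, 455 (368 to 557) with 1, 740 (583 to 927) with 2 to 4, and 1039.8 (963 to 1121) with 5 or more. These counting intervals did not overlap, but they take no account of UMIs that lie in the same cell. A single cell held 25.3% of the Klrd1 UMIs of the class with 1, and 21.1% of those with 2 to 4. The shares of cells with a Klrd1 UMI were 27.5% (24.8 to 30.3), 42.9% (29.7 to 56.8), 59.4% (40.6 to 76.3) and 84.5% (76.6 to 90.5). By cells, neighbours among the lowest 3 classes overlapped, so these steps were not shown. Klrc1 was at 62.8, 38.3, 87.7 and 243 CPM in the same order, and the intervals of the lowest 3 classes overlapped, with the top class above them. Klrc2 stood at 16.2, 43.1, 156 and 119 CPM, so its top pair of classes did not differ beyond counting error. Klrk1 stood at 3.68, 4.79, 9.74 and 49.4 CPM, with 1 UMI in each of the middle classes.

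Of the 148 cells with 2 or more Cd8 UMIs, 144 had a Cd8a UMI and 125 a Cd8b1 UMI. Against cells with none, Klrd1 was 4.11-fold higher (3.74 to 4.53), at 999 and 243 CPM. Klrc1 was 3.52-fold higher (2.88 to 4.30), Klrc2 7.66-fold (5.52 to 10.7) and Klrk1 11.95-fold (6.31 to 23.7). Klre1, at 6 and 9 UMIs, had a ratio of 3.62 (1.06 to 11.4). Klrg1 had 0 UMIs in the 148 cells, where 3 cells or 2.03% would still be allowed, and 12 UMIs in the cells without Cd8. The 3 Klrb1c UMIs also fell in cells without Cd8, and at these counts no fold is given for either gene. Of the members, 4 had at least 20 UMIs over both classes, and Klrk1, at 33 and 15, reached 20 only through the Cd8 class. All 4 were at least 2-fold higher, against 3.46% of the 8697 genes counted, and 0 were lower, against 9.77%. As the members were chosen with earlier results known, this count is a description and no support. Of the 19 other Klr genes in the matrices 1, Klrb1f, was counted here, with a log2 ratio of −2.08. All 19 together had 6 UMIs in the Cd8 class and 28 in the cells without Cd8, so a lower Klrb1f was not shown.

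Any of the 7 genes was detected in 89.9% of the cells with 2 or more Cd8 UMIs (83.8 to 94.2) and in 32.4% of those with none (29.6 to 35.3). At equal depth the shares were 82.5% and 25.4%, and the classes had median depths of 4241 and 3654 UMIs. Per 100 Klrd1 UMIs, Klrk1 had 4.41 UMIs (3.01 to 6.24) in the Cd8 class and 1.52 (0.85 to 2.51) in cells without Cd8, and Klrc2 had 12.4 (9.90 to 15.4) and 6.67 (5.12 to 8.57). Klrc1 had 22.2 (18.6 to 26.3) and 25.9 (22.5 to 29.7), which overlap. Klrc2 and Klrk1 were thus higher per Klrd1 UMI in the Cd8 class as a whole beyond counting error, and the part of free RNA in these counts was not tested. In cells with a Cd4 UMI this was not shown, as given below.

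**Figure D2:**
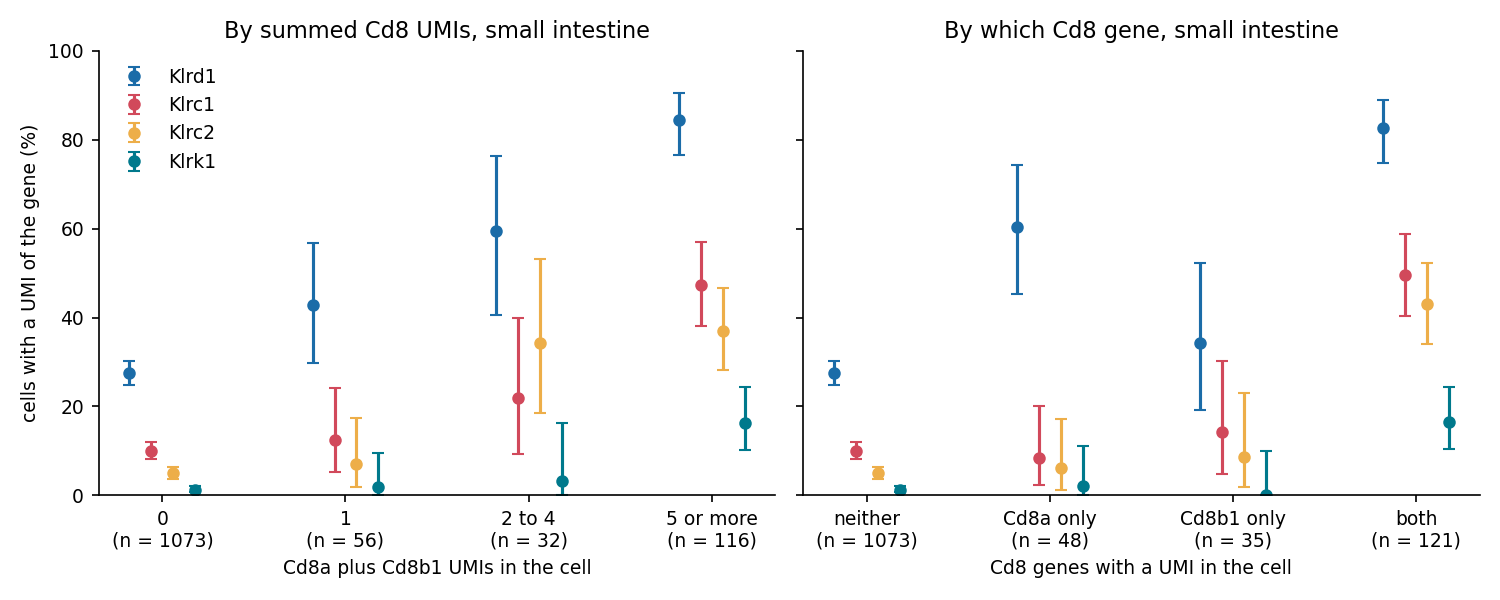
Percent of intestinal cells with a UMI of Klrd1, Klrc1, Klrc2 or Klrk1, by the summed Cd8a and Cd8b1 UMIs of the cell (left) and by which Cd8 gene had a UMI (right), with exact 95% counting intervals and the number of cells in each class. Klrd1 goes from 27.5% with no Cd8 UMI to 84.5% with 5 or more, and in cells with Cd8a alone Klrd1 is at 60.4% with Klrc1 at 8.33%.

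The receptor transcripts were also described by which Cd8 gene was detected. This split was chosen after seeing the data. In the 121 cells with UMIs of both Cd8a and Cd8b1, Klrd1 was detected in 82.6% (74.7 to 88.9), Klrc1 in 49.6% (40.4 to 58.8), Klrc2 in 43.0% (34.0 to 52.3) and Klrk1 in 16.5% (10.4 to 24.4). The 48 cells with Cd8a alone had Klrd1 in 60.4% (45.3 to 74.2), above the 27.5% of cells with no Cd8 (24.8 to 30.3). Klrc1 was detected in 8.33% of the Cd8a-only cells (2.32 to 19.98) and in 9.97% of cells with no Cd8 (8.24 to 11.9), and Klrc2 in 6.25% (1.31 to 17.2) and 4.94% (3.72 to 6.41). The 35 cells with Cd8b1 alone had Klrd1 in 34.3% (19.1 to 52.2), and Klrk1 in 0 of 35, which allows up to 8.57%. Of these cells 31 had a single Cd8b1 UMI. A Cd8b1 UMI was also found in 7.15% of splenic cells, where Cd8a had 0 UMIs, and what a lone Cd8b1 UMI stands for was not tested. The depth differed as well, with medians of 4452 UMIs for both genes, 3197.5 for Cd8a alone and 3968 for Cd8b1 alone; at equal depth the shares of Klrd1 were 73.3%, 46.5% and 30.3%, and those of Klrc1 28.3%, 2.33% and 3.03%.

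Cells with 2 or more Cd8 UMIs had less Cd4, at 139 against 445 CPM, and a Cd4 UMI in 43.9% against 76.9% of cells. Zbtb7b, which encodes the CD4 lineage factor ThPOK, had 3 UMIs in this class and 73 in the cells without Cd8, 4.48-fold lower (1.47 to 22.2). The comparison was therefore repeated within cells with and without a Cd4 UMI, a split added after seeing the data. With a Cd4 UMI (65 and 825 cells), the Cd8 class was higher by 4.58-fold for Klrd1 (4.05 to 5.17), 3.05-fold for Klrc1 (2.30 to 3.99), 5.32-fold for Klrc2 (3.32 to 8.38) and 6.90-fold for Klrk1 (2.71 to 17.0). Without a Cd4 UMI (83 and 248 cells), it was higher by 3.71-fold for Klrd1 (3.10 to 4.44), 4.83-fold for Klrc1 (3.31 to 7.15) and 10.8-fold for Klrc2 (5.77 to 22.1), while Klrk1 rested on 23 and 2 UMIs (ratio 24.5, 6.05 to 214). Without a Cd4 UMI the fold intervals of Klrc2 and Klrk1 lay above that of Klrd1. With a Cd4 UMI they overlapped it, so a higher level per Klrd1 UMI was not shown in those cells. Among cells with no Cd8 UMI, those without a Cd4 UMI had Klrd1 at 0.99 of the level of those with one (0.84 to 1.15).

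Cells without Cd8 in the intestine still differed from the spleen. Against splenic cells with no Foxp3 UMI, Klrd1 was 19.1-fold higher (15.3 to 24.0), Klrc1 3.73-fold (2.98 to 4.69) and Klrc2 5.03-fold (3.06 to 8.56). For Klrk1 the ratio was 1.40, with an interval of 0.66 to 2.93 that included equal levels, at 15 and 18 UMIs. Of the 49 intestinal Klrk1 UMIs, 33 were in the 148 cells with 2 or more Cd8 UMIs.

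The third comparison took splenic cells by Foxp3. Of the 1468 cells, 280 had a Foxp3 UMI, at a median depth of 7665.5 UMIs, and 1188 had none, at 5047.5. By summed UMIs, Klrd1 and Klrc1 were lower in the Foxp3 cells and Klrg1 was higher. By share of cells the intervals of Klrd1 and Klrc1 overlapped between the classes. Klrd1 was detected in 1.07% of Foxp3 cells (0.22 to 3.10) and 3.37% of the others (2.42 to 4.56). Klrc1 was detected in 1.43% (0.39 to 3.62) and 3.62% (2.63 to 4.84). Klrd1 had 3 UMIs in the Foxp3 cells and 87 in the others, 1.29 and 12.7 CPM, a level 9.87-fold lower (3.27 to 48.8). Klrc1 had 10 and 115 UMIs, 4.30 and 16.8 CPM, 3.91-fold lower (2.05 to 8.38). Klrc2 had 2 and 22 UMIs, a ratio of 3.74 with an interval of 0.92 to 32.8 that included equal levels. All 18 splenic Klrk1 UMIs were in cells without Foxp3, and 0 of 280 cells allows a share of up to 1.07%. Taking 3 UMIs over the group as the floor, Klrk1 was 2.04-fold lower in the Foxp3 cells. The exact interval of its log2 ratio ended nearer to equal levels, at −0.58. These UMIs lay in 8 cells, of which 0 had a Foxp3 UMI. The interval of that share, 0 to 36.9%, includes the 19.1% of all splenic cells, so a lower Klrk1 was not shown. The 14 Klrb1c and 4 Klre1 UMIs of the spleen likewise lay outside the Foxp3 cells. For Klrb1c the same floor gives a level 1.59-fold lower, with the exact interval of the log2 ratio ending at −0.17. For Klre1 it sets no bound.

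Klrg1 had 30 UMIs in the Foxp3 cells and 48 in the others, 12.9 (8.71 to 18.4) and 7.03 (5.18 to 9.32) CPM, 1.84-fold higher (1.12 to 2.96). It was detected in 5% of Foxp3 cells (2.76 to 8.25) and 1.43% of the others (0.84 to 2.28). At equal depth the shares were 2.51% (1.01 to 5.10) and 0.77% (0.35 to 1.46), and these intervals overlapped. Of the 31 splenic cells with a Klrg1 UMI, 14 had a Foxp3 UMI, 45.2% (27.3 to 64.0), against 19.1% of all splenic cells. Among the 43 Klrd1 cells 3 had a Foxp3 UMI, 6.98% (1.46 to 19.06), and among the 47 Klrc1 cells 4 did, 8.51% (2.37 to 20.4). The interval of Klrc1 includes 19.1%, so by cells a lower Klrc1 was not shown, and that of Klrd1 ends close to it. Of the few intestinal Klrg1 cells, 3 of 6 had a Foxp3 UMI (11.8 to 88.2%) against 2.19% of all intestinal cells, and 3 of the 436 Klrd1 cells did.

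Of the 7 genes, 4 had at least 20 UMIs over both splenic classes. Of these, 0 were at least 2-fold higher in the Foxp3 cells, where 2.51% of the 9615 genes counted were, and 3 were at least 2-fold lower, where 4.31% were. The 3 were Klrd1, Klrc1 and Klrc2, and the interval of Klrc2 included equal levels. Klrk1, at 18 UMIs, was not counted. At equal depth, with the classes made anew, the log2 ratio of Klrc1 went from −1.97 to −0.29 and that of Klrg1 from 0.88 to 2.17, and Klrd1 had 0 UMIs in the 111 Foxp3 cells and 33 in the 1334 others, which sets no bound past 2-fold. The size of these splenic differences thus depended on this setting, and at equal depth Klrc1 was not 2-fold lower.

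**Figure D3:**
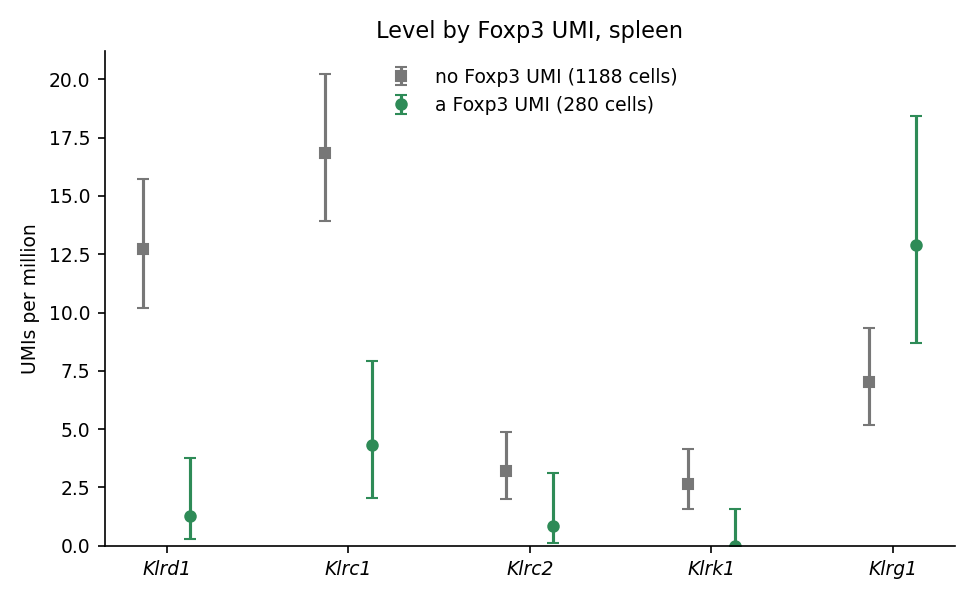
CPM of Klrd1, Klrc1, Klrc2, Klrk1 and Klrg1 in splenic cells with no Foxp3 UMI (squares) and with one (circles), with exact Poisson 95% intervals, 1 library. Klrg1 is the gene whose Foxp3 point, 12.9, stands above the other, 7.03.

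Co-detection of the subunits in single cells was described next. CD94 needs an NKG2 chain to form these receptors. In the intestine, 284 of the 436 Klrd1 cells (65.1%) had no UMI of Klrc1 or Klrc2, 70 had Klrc1 alone, 23 had Klrc2 alone and 59 had both. Conversely, 71.4% of the 213 cells with Klrc1 or Klrc2 had a Klrd1 UMI. In the spleen 40% of 50 such cells did, and of the 43 Klrd1 cells 12 had Klrc1 alone, 8 had both and 23 had neither. A missing UMI does not show a missing transcript at this depth.

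Klrd1 and Klrc1 were found together in 129 intestinal cells, where the product of the shares gives 60.1, and in 20 splenic cells, where it gives 1.38. The splenic share of Klrd1 was not read as expression above, but 20 of its 43 cells also had a Klrc1 UMI, against 3.20% of all splenic cells. Klrc1 and Klrc2 were together in 74 intestinal cells against 15.3 from the product, and in 13 splenic cells against 0.51. Klrc2 and Klrk1 shared 20 intestinal cells against 2.96. Klrg1 shared 1 intestinal cell with Klrd1, against 2.05, and 2 splenic cells, against 0.91, counts too small to place it with these genes or apart from them. At equal depth Klrd1 and Klrc1 were together in 59 intestinal cells against 27.9 and in 9 splenic cells against 0.45. The reads that Klrc1 and Klrc2 could share, from the stretches given above, bear on their pair, and their part in it was not tested.

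**Figure D4:**
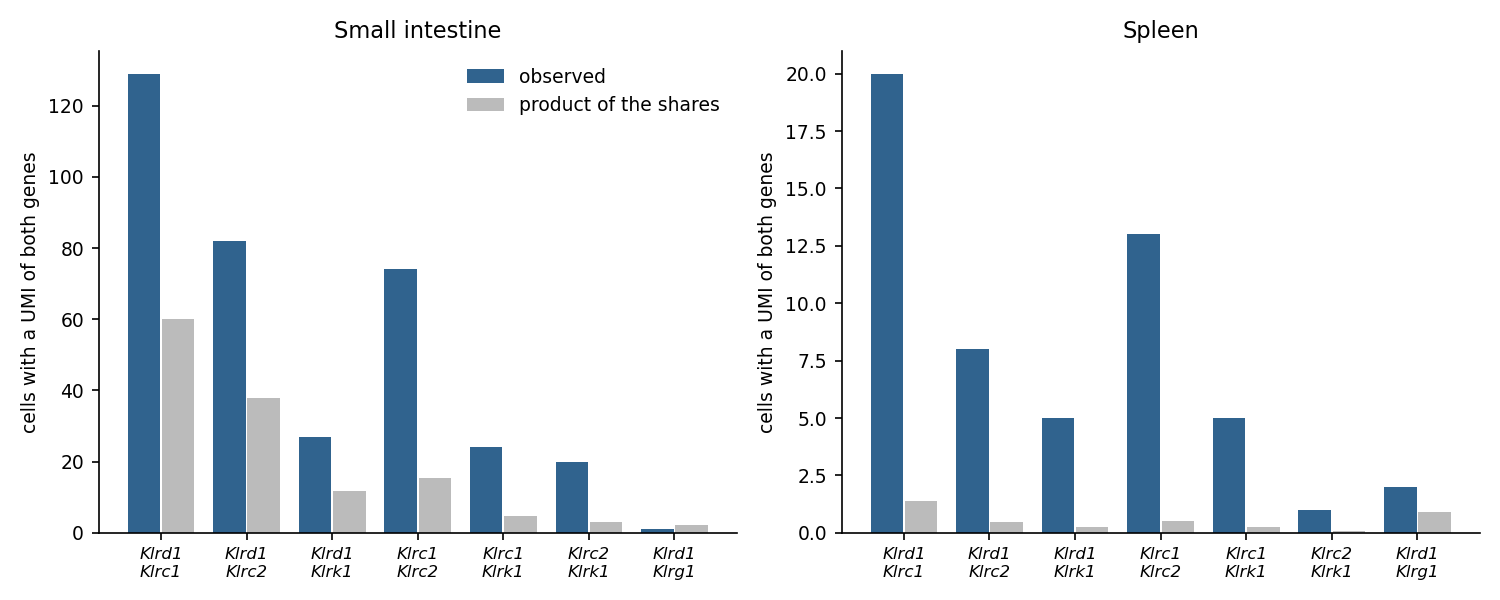
Cells with a UMI of both genes of a pair (dark bars) beside the number that the product of the shares of the 2 genes gives (light bars), in the small intestine (1277 cells) and the spleen (1468 cells). In the intestine Klrd1 and Klrc1 share 129 cells against 60.1, and the pair of Klrd1 and Klrg1 has 1 cell against 2.05.

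Within the intestine the pairs were also described by Cd8 class. In the 1073 cells without Cd8, Klrd1 and Klrc1 shared 70 cells against 29.4, which is 2.38 times the product, and Klrd1 and Klrc2 shared 34 against 14.6. In the 148 cells with 2 or more Cd8 UMIs, Klrd1 and Klrc1 shared 52 against 49.0 and Klrd1 and Klrc2 shared 44 against 42.7, close to the product. Klrc1 and Klrc2 kept more shared cells than the product there, 35 against 22.6. In that class 79.1% of cells had a Klrd1 UMI, which leaves few cells in which a partner could be found without it. Shared cells could therefore not rise far above the product for Klrd1 there, and a difference in pairing between the classes was not shown.

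The partners were also described by the Klrd1 UMIs of the cell. In intestinal cells without Cd8, Klrc1 was detected in 4.76% of the 778 cells with no Klrd1 UMI, 19.1% of the 115 with 1, 21.7% of the 115 with 2 to 4, and 35.4% (23.9 to 48.2) of the 65 with 5 or more. Klrc2 was detected in 2.44%, 7.83%, 11.3% and 18.5% of the same cells. In the Cd8 class (31, 15, 40 and 62 cells) no such order was seen, and the share of Klrc1 in the 15 cells had a wide interval (4.33 to 48.1). Klrc1 was detected there in 32.3%, 20%, 37.5% and 54.8%, and Klrc2 in 32.3%, 53.3%, 25% and 41.9%, with overlapping intervals between the end classes. In the spleen, Klrc1 was detected in 1.89% of the 1425 cells with no Klrd1 UMI, in 8 of the 26 with 1, in 9 of the 14 with 2 to 4, and in all 3 with 5 or more. Splenic Klrc2 was detected in 0.56% of the cells with no Klrd1 UMI, in 5 of 26, in 3 of 14, and in 0 of 3. Deeper cells hold more UMIs of each gene, and the median depth of the intestinal cells went from 3504 with no Klrd1 UMI to 4468 with 5 or more. In the Cd8 class it went from 3281 to 6063.5, and in the spleen from 5389 to 8098.

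**Figure D5:**
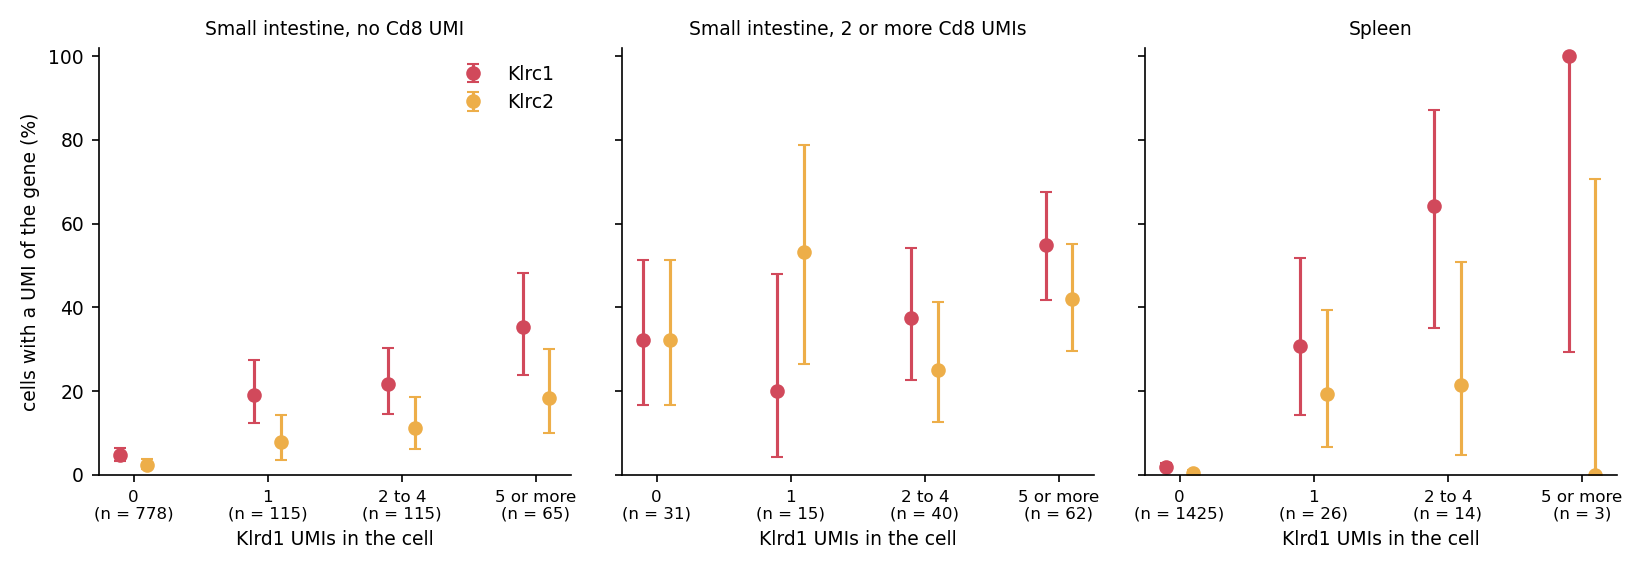
Percent of cells with a Klrc1 or Klrc2 UMI by the Klrd1 UMIs of the cell, in intestinal cells with no Cd8 UMI, intestinal cells with 2 or more, and splenic cells, with exact 95% intervals and cell numbers. Klrc1 goes from 4.76% to 35.4% in intestinal cells without Cd8 and from 1.89% to 3 of 3 cells in the spleen.

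The number of the 7 genes detected per cell differed between the tissues. In the intestine 319 cells had 1 of them, 115 had 2, 54 had 3, 15 had 4 and 2 had 5, so that 14.6% had at least 2. In the spleen 77 cells had 1 and 29 had 2 or more, 1.98% of cells, including 2 with 5. No cell of either tissue had more than 5.

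The genes whose levels went most with Klrd1 were ranked by the lower bound of the ratio between cells with and without a Klrd1 UMI, over genes with at least 50 UMIs in the library. In the intestine (436 and 841 cells) they were Cd8b1 (10.5-fold), Cd8a (9.12-fold), Klrc1 (7.19-fold), Car2, Klrc2 (5.45-fold), Calcb, Cd7 (3.29-fold) and Penk. Car2 encodes a carbonic anhydrase, Penk the precursor of enkephalins and Cd7 a surface protein of T and natural killer cells. In the spleen (43 and 1425 cells) they were Klrc1 (27.8-fold), Ccl5 (8.07-fold), Gzma (7.41-fold), Serpina3f, Ccl3 (5.39-fold), Ccl4, Gzmb (4.65-fold) and Serpinb9. Ccl3, Ccl4 and Ccl5 are chemokine genes, Gzma and Gzmb encode granzymes, and Serpinb9 encodes an inhibitor of granzyme B. In the intestine the folds of these cytotoxic genes were smaller, with Gzma at 1.84-fold (1.82 to 1.86), Gzmb at 1.52-fold and Ccl5 at 1.39-fold. The levels they start from differed. Without a Klrd1 UMI, Gzma stood at 19380 CPM in intestinal cells and 42.7 in splenic cells, and Ccl5 at 42461 and 2269. These are descriptions over the cells of 1 library each.

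Other genes of these receptor pathways were taken from lists. Of 13 adaptor and signalling genes, 12 were counted between the tissues, 3 at least 2-fold higher in the intestine and 3 lower. Hcst, the NKG2D adaptor, stood at 777 CPM in the intestine and 489 in the spleen, and was 1.24-fold lower in the Cd8 class than without Cd8 (1.13 to 1.37). Tyrobp, the DAP12 adaptor with which NKG2C signals in natural killer cells, had 0 UMIs in the intestine, below 0.596 CPM, and 26 in the spleen. Of 16 ligand genes 12 were listed and 3 counted. H2-T23, which encodes Qa-1, stood at 523 and 204 CPM, 2.56-fold higher in the intestine (2.41 to 2.72). Clec2i, a ligand gene of NKR-P1 receptors, went the other way at 2.19 and 22.8 CPM, 10.4-fold lower (5.72 to 21.3), and Clec2d stood at 41.3 and 62.2 CPM, so that the median log2 ratio of the 3 was −0.59. Of the NKG2D ligand genes in the matrices, Raet1d, Raet1e, H60b and H60c had 0 UMIs in both tissues and Ulbp1 had 7 and 10. Of 10 transcription factor genes 9 were counted, 5 higher in the intestine and 1 lower: Id2 was 4.72-fold higher (4.56 to 4.90), Runx3 3.24-fold higher (2.95 to 3.56), and Tcf7 stood at 9.34 against 132 CPM. Between the intestinal Cd8 class and cells without Cd8, 0 of 9 counted were at least 2-fold higher, so Runx3 was not. There 3 were lower, with a median log2 ratio of −0.60. All 8 cytotoxic genes were at least 2-fold higher in the intestine, with a median log2 ratio of 3.20.

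Of the 19 further Klr genes in the matrices, 10 had 0 UMIs in both tissues, 8 had 1 to 19 in the library with more, and 1, Klrb1f, had 28 in the intestine and 21 in the spleen, 5.56 and 2.29 CPM. The 11 Klra genes, which encode the Ly49 receptors of mouse natural killer cells, had 3 UMIs in each tissue in all. Klrc3 had 0 UMIs.

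Markers of natural killer cells were checked beside these results. Ncr1, the defining one, had 0 UMIs in both tissues. The 5 natural killer markers, Klrb1c included, summed to 1.59 CPM in the intestine, with Ncr1 and Tyrobp at 0, and to 10.1 in the spleen. Their sum was lower in the intestine, and of the splenic UMIs in it 35 were of Fcer1g, 26 of Tyrobp and 14 of Klrb1c, itself a member. Within the spleen, however, cells with a Klrd1 UMI had Klrb1c 38.9-fold higher (11.8 to 136), at 8 and 6 UMIs. Tyrobp was 5.30-fold higher there (1.33 to 15.6). The ratios of Fcer1g, 3.76 (0.97 to 10.6), and Eomes, 1.82 (0.04 to 11.7), had intervals that included equal levels. Of 7 markers of γδ T cells only Sox13 was listed, at 0 UMIs in both tissues, and the γδ receptor genes were not analysed here. The NKT marker Zbtb16 had 3 and 31 UMIs. The 4 B cell markers summed to 14.1 and 6.45 CPM, and the 4 epithelial markers to 17.3 and 32.1. Within the intestine, the natural killer markers had 1 UMI in the Cd8 class and 5 in the cells without Cd8. Of the myeloid markers Itgax, which encodes CD11c, had 24 UMIs in the Cd8 class and 1 in the cells without Cd8, and Cd68, which encodes a lysosomal protein, had 43 and 262 UMIs. Between the tissues the 4 myeloid markers summed to 68.6 CPM in the intestine and 16.1 in the spleen, higher in the tissue with more Klrd1: Cd68 had 318 and 81 UMIs (7.14-fold, 5.58 to 9.23), Itgax 25 and 1, Csf1r 2 and 0, and Lyz2 0 and 65. Whether other cell types contributed to the receptor transcripts was not tested.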

How the data were processed

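Transcripts were counted in IL-10eGFP+ CD4+ T cells of 2 tissues, with 1 library each. The authors deposited raw UMI counts per gene and cell barcode, made per the labels with Cell Ranger and Trimmomatic on mm10 (mm8 is also listed); versions are not given in the sources used here. The matrices held 1474 intestinal barcodes with 5693395 UMIs and 1738 splenic ones with 11103530 UMIs. Cells beyond 3 median absolute deviations in UMIs, genes or mitochondrial share (135 and 90) and then cells called G2/M by cyclone in scran 1.30.0 (62 and 180) were left out. No doublet caller was run; leaving out the 5% of cells with most UMIs was an alternative. UMIs were summed by library or class and scaled to 1000000 (CPM). Ratios had exact binomial 95% intervals. Genes with at least 20 UMIs over both groups were counted past a 2-fold ratio, with a count of 0 set to 3 UMIs over the group. A reference class of splenic cells for free RNA is not reported here. No test was run, as cells are not replicates. The ratio and call code was tested on simulated data. Named genes are the members, the pathway lists and the 8 genes ranked highest with Klrd1 in each library. Members and lists were chosen with earlier results of these data known. Python 3.11.15, scipy 1.17.1 and R 4.3.3 were used.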

Additional observations from a re-analysis of the deposited data

How the results depend on the processing

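Alternatives were all barcodes, G2/M cells kept, the 5% of cells with most UMIs left out, equal depth, each cell weighted alike, scaling by the median ratio, and other classes or strata. No ratio of a member reversed under any of them: 41 of 49 ratios between tissues, 36 of 40 by Cd8 and 30 of 33 by Foxp3 stayed within the counting interval of the reported value. The 33 leave out Foxp3 ratios that had no value under an alternative. At equal depth only Klrc1 and Klrg1 had one by Foxp3, and both moved out of the interval. With 2 or more Foxp3 UMIs the log2 ratio of Klrk1 went from −1.03 to −0.007. The count of members at least 2-fold higher in splenic Foxp3 cells went from 0 to 1 without the 5% of cells with most UMIs, to 1 at equal depth and to 1 with each cell weighted alike, each time Klrg1 (log2 ratio 1.54, 2.17 and 1.44). The count at least 2-fold lower went from 3 to 0 at equal depth, where the log2 ratio of Klrc1 was −0.29, Klrd1 (0 and 33 UMIs) gave no bound past 2-fold and Klrc2 (0 and 8) had under 20 UMIs, and to 2 with 2 or more Foxp3 UMIs. The count higher in the intestine was 5 with all barcodes and 5 with G2/M cells kept, against 4, and 3 between cells without Cd8 and without Foxp3. The share of cells with any member was 32.9% in the intestine and 4.50% in the spleen at equal depth; 5 further draws gave 33.6%, 32.8%, 33.4%, 33.7% and 33.0%, and 4.15%, 4.22%, 4.22%, 3.74% and 4.43%, since thinning removes UMIs. Without the 5% of cells with most UMIs, the log2 ratios between tissues went from 5.21 to 4.90 for Klrd1 and from 2.65 to 2.33 for Klrc1. Depth limits Klrb1c, Klre1 and all splenic members except Klrd1, Klrc1 and Klrg1 to under 30 UMIs. No paired analysis was possible because each tissue has 1 library.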
